A study of Mus musculus with 8 samples.

Results

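The genes described here copy DNA, drive cells into and through division, or hold the cycle in check. The list holds 41 mouse genes, of which 22 act in G1 and S phase, 17 act in mitosis and 2, Cdkn1a and Mdm2, are targets of the tumour suppressor p53. They were chosen by name, and a gene was measured where its probe on an Illumina expression beadchip exceeded the noise limit on at least 2 of 8 arrays. Of the 41 genes, 37 had a probe and 24 passed, against 8757 of 15967 genes with a probe in all.

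The study asked how macrophages with and without IRAK4 kinase activity respond to acLDL, the acetylated form of low density lipoprotein, which scavenger receptors bring into macrophages. IRAK4 is a kinase that acts below the receptors for microbial products and interleukin-1. The 8 samples formed 4 groups of 2. The IRAK4 kinase-inactive knock-in (KI) groups were KI cells given 100 ug/ml acLDL for 24 hours and KI cells left untreated, and the wild type groups were wild type cells given the same acLDL and wild type cells left untreated. All 4 groups shared the strain, labelled 129/BL6, female sex and a culture of bone marrow cells for 5 days in medium conditioned by L929 cells, which secrete the macrophage growth factor CSF1. The labels used here give no ages, nor whether both samples in each group are from different animals or cultures, so p-values rest on a spread that could be technical.

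The labelled cell type and its markers were at odds. Of 18 macrophage markers with a probe, 10 were above noise on all 8 arrays, among them Lyz2, which encodes lysozyme, and Laptm5, but Itgam, Fcgr1, Msr1, Cd163 and Cd36 were above noise on none. Of 13 lung epithelial markers with a probe, 10 were above noise on all 8 arrays, but Hopx and Epcam were above it on none. Among the brightest, Sftpc, a surfactant protein gene, had a mean log2 intensity of 15.19 ± 0.13 (SD, n = 8). Scgb1a1, a secretory protein of airway club cells, had 14.93 ± 0.09. Of 11 endothelial markers with a probe, 10 were above noise on all 8 arrays. The libraries are therefore named below by their labels, as arrays labelled KI or wild type. Irak4 has no probe in the values used, so the genotype labels were not checked. In bulk samples, fewer cells of a type and less RNA per cell cannot be told apart.

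In a dividing cell, the complex of MCM proteins is loaded on DNA in G1 with the help of CDC6 and CDT1, and is fired in S phase. In a separate step before S phase, D-type cyclins with CDK4 and cyclin E with CDK2 release E2F transcription factors from the pocket proteins. Mitotic genes, such as Cdk1, the B-type cyclins, Plk1 and the Aurora kinases, are expressed later, in G2 and mitosis. p21, encoded by Cdkn1a, inhibits the cyclin-dependent kinases, and MDM2 marks p53 for degradation. Macrophages grown from bone marrow in the presence of CSF1 can divide, whereas most cells of adult lung divide rarely.

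S phase and mitosis genes are known to use different promoter elements, and the sequences are shown because this division runs through the list. E2F sites are typical of S phase genes, and the CCAAT box with the cell cycle genes homology region is typical of mitotic genes. Promoters of 300 bases, reaching 250 before and 50 after the start site, were taken from RefSeq on build GRCm38.p6 for 32 of the 41 genes (35 promoters, as some genes have more than 1). On both strands, CCAAT, the homology region as TTTGAA or TTCGAA, and the E2F site as TTCCCGC or TTGGCGC were searched. In the 4 promoters printed 5′ to 3′ on the strand of the gene, capitals mark the matches in either orientation, and no matches overlap.
Cdc20, chr4:118437294-118437593, minus strand: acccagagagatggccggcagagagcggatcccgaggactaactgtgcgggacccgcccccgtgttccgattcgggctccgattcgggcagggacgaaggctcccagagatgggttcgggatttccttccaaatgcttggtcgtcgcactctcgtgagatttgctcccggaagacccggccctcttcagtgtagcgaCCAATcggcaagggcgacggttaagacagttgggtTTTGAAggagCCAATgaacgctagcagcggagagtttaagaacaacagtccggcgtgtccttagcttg
Top2a, chr11:99024140-99024439, minus strand: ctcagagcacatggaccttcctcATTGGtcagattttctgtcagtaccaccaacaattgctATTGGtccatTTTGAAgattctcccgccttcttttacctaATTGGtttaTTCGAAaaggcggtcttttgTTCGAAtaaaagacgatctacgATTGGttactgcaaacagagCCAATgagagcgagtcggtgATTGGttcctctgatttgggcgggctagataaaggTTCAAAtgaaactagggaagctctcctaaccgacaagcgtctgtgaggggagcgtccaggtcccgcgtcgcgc
Mcm5, chr8:75109259-75109558, plus strand: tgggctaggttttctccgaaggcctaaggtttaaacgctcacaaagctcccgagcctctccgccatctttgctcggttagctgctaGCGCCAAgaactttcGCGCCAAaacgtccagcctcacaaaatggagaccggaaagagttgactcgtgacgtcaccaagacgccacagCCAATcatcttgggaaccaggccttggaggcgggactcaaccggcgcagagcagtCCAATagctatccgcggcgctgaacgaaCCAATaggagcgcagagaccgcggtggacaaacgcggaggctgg
Mcm6, chr1:128359656-128359955, minus strand: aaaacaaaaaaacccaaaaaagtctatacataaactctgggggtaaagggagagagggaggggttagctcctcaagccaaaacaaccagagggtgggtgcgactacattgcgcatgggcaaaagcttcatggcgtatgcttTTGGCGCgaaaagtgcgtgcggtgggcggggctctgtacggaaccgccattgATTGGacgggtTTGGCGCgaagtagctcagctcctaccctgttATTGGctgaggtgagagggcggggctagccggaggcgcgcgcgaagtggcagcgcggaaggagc
The mitotic promoters of Cdc20, which activates the anaphase-promoting complex, and of Top2a, a topoisomerase that untangles chromosomes, held 2 and 6 CCAAT boxes and 1 and 4 homology regions. Those of the helicase genes Mcm5 and Mcm6 held 2 E2F sites each, 3 and 2 CCAAT boxes, and no homology region. Over the list, CCAAT was present in 12 of 13 mitosis promoters (92.3%) and in 11 of 19 S phase and G1 promoters (57.9%), against 37.4% of all 32851 promoters. The homology region was present in 11 of 13 mitosis promoters (84.6%) and in 2 of 19 S phase and G1 promoters (10.5%), against 19.2% of all. An E2F match was present in 3 of 13 mitosis promoters (23.1%) and in 9 of 19 S phase and G1 promoters (47.4%), against 6.81% of all. A match is a string of letters in this window and was not tested as a binding site.

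The 2 classes differed in how many of their genes could be measured. The noise limit, 3 times the root mean square of the values below 0, was an intensity of 36.7. Intensities are given as deposited, and log2 values after background correction. Of 21 S phase and G1 genes with a probe, 17 passed (81.0%), and 16 of them exceeded the limit on all 8 arrays. Of 14 mitosis genes with a probe, 5 passed (35.7%), and of these Stmn1 alone exceeded it on all 8 arrays. Of all genes with a probe, 54.8% passed. The mitosis genes that did not pass were Ccna2 and Ccnb2, which encode cyclins A2 and B2, the mitotic kinase Cdk1, the ubiquitin-conjugating enzyme gene Ube2c, the Aurora kinases Aurka and Aurkb, the spindle checkpoint genes Bub1 and Bub1b, and the spindle motor Kif11. The S phase and G1 genes that did not pass were Gmnn, which encodes the licensing inhibitor geminin, Rrm2, the small subunit of ribonucleotide reductase, and the cyclin E genes Ccne1 and Ccne2. Mcm3, Ccnb1, Mki67 and Kif20a were not analysed here. Just inside the rule, Top2a and Tk1 exceeded the limit on 2 arrays. Just outside it, Cdk1, Aurka and Rrm2 exceeded it on 1 array, Cdk1 and Aurka on KI acLDL replicate 2 at 60.8 and 39.4, and Rrm2 on wild type untreated replicate 2 at 50.

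**Figure D1:**
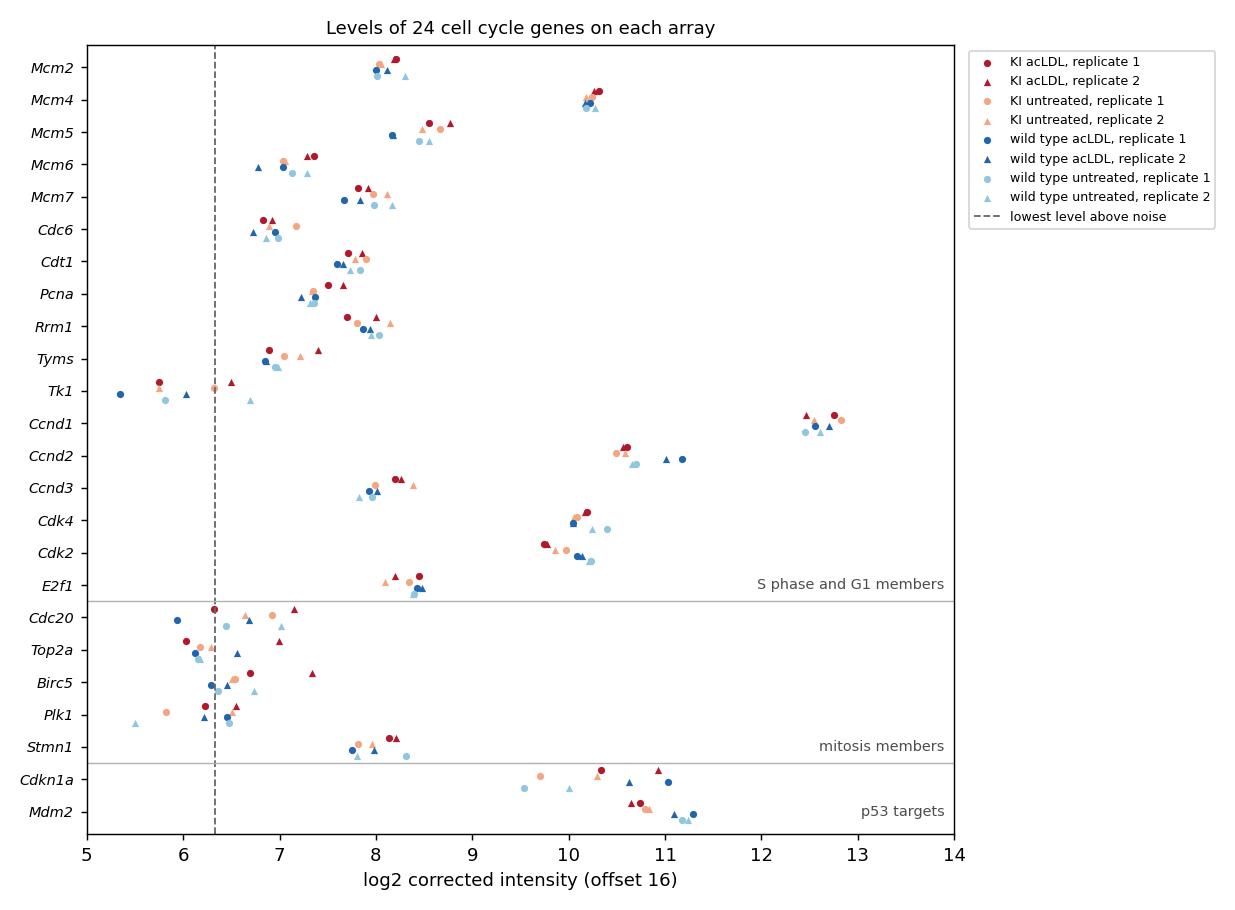
Log2 background-corrected intensity (x axis) of the 24 genes that passed (rows, by class), with 1 point for each array, coloured by group and shaped by replicate, and a dashed line at the noise limit. Of the 17 S phase and G1 genes 16 lie right of the line on all 8 arrays, whereas 4 of the 5 mitosis genes have points on both sides of it. Positions of different genes are not comparable, since each probe has its own brightness.

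Among the 24 genes, 1 comparison gave 1 call at an adjusted p under 0.05 by limma with Benjamini-Hochberg adjustment over all 10187 items tested. In the mean of both treatments, Mdm2 was lower in KI, against a background of 3.39% of all items called (345 items). No member passed for acLDL in KI cells (0.0196% of items called), for acLDL in wild type cells (0.177%), for the difference between these acLDL effects (0.0491%), for KI against wild type with acLDL (0.216%) or for KI against wild type untreated (0.00982%). At an unadjusted p under 0.05 the counts were 0 of 24 for acLDL in KI, against 6.46% of items, 6 of 24 for acLDL in wild type, against 12.0%, and 4 of 24 for the difference of acLDL effects, against 8.59%. KI against wild type gave 7 of 24 with acLDL, against 21.8%, then 3 of 24 untreated, against 15.0%, and 5 of 24 for the mean of both treatments, against 26.6%. The comparisons share arrays, so these counts are not independent of each other.

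Groups whose arrays did not overlap were common over all items. With acLDL in KI, 11 of 24 members had groups apart (39.0% of items), 8 higher (18.3%) and 3 lower (20.7%). With acLDL in wild type, 11 of 24 were apart (41.8% of items), 3 higher (21.9%) and 8 lower (19.9%). KI against wild type gave 14 of 24 apart with acLDL (55.1% of items), 11 higher (24.1%) and 3 lower (30.9%), and 8 of 24 untreated (49.4%), 2 higher (23.7%) and 6 lower (25.7%). Over all 8 arrays, 3 of 24 had all 4 KI arrays apart from all 4 wild type arrays (14.8% of items), 0 higher (6.07%) and 3 lower (8.71%), and these were Mdm2, Cdk2 and Ccnd2.

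The members' differences were small. With acLDL in KI cells 16 of 24 were higher and 8 lower, with a median log2 difference of 0.08 (all items -0.01), and with acLDL in wild type cells 7 were higher and 17 lower, with a median of -0.09 (all items 0.01). KI against wild type gave 17 higher and 7 lower with acLDL, with a median of 0.14 (all items -0.03), and 11 higher and 13 lower untreated, with a median of -0.02 (all items -0.01). The median over the 17 S phase and G1 genes was 0.05 for acLDL in KI, -0.09 for acLDL in wild type, 0.14 for KI against wild type with acLDL and -0.02 untreated. Over the 5 mitosis genes it was 0.28, -0.18, 0.31 and 0.05 in the same comparisons. These 4 values include probes at or under the noise limit (the 0.28 is that of Top2a, with both KI untreated arrays under it), so they describe the arrays and carry no fold. The 95% interval of a member's difference between 2 groups reached 0.31 on either side at the median, with 2 arrays a group. That interval is not adjusted for the number of items tested, so a call needed a larger change. Ccnd2, at -0.51 for KI against wild type with acLDL, did not pass (limma adjusted p = 0.0837).

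**Figure D2:**
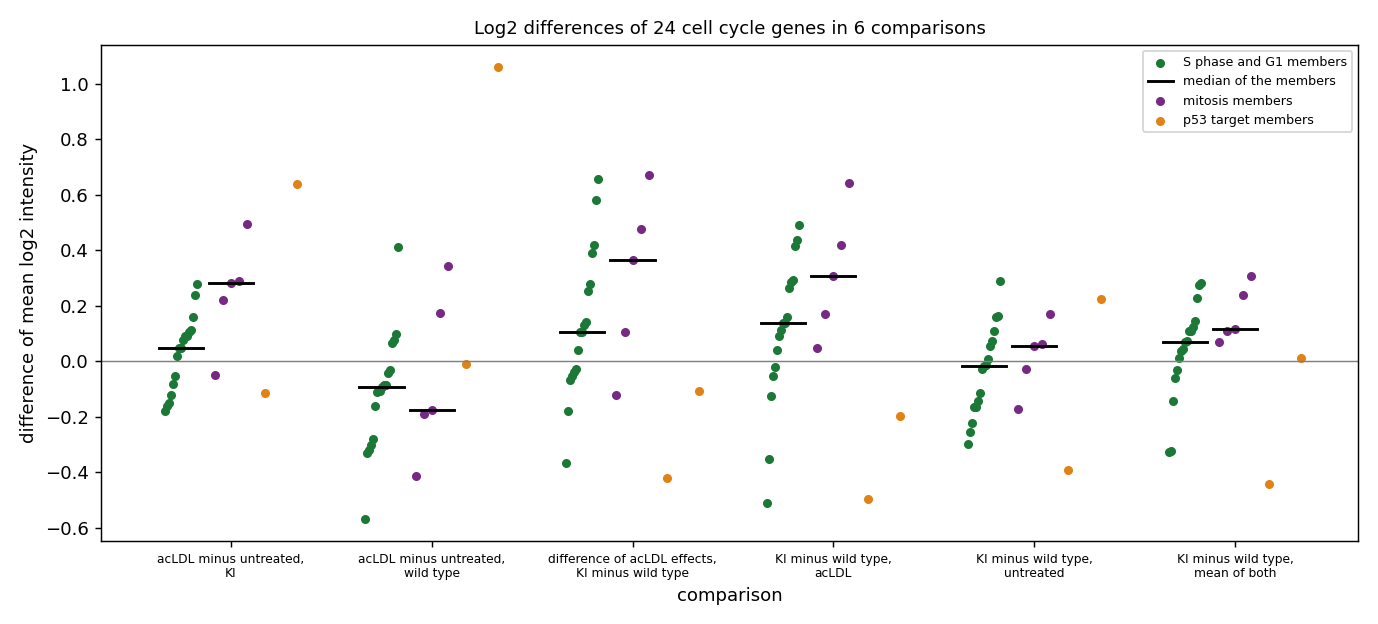
Difference of mean log2 intensity (y axis) of each of the 24 genes in 6 comparisons (x axis), with S phase and G1 genes in green, mitosis genes in purple and p53 targets in orange, and a black line at the median of each class of more than 2 genes. Most points lie within 0.5 of 0. The highest is Cdkn1a for acLDL in wild type cells, at 1.06.

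Among the licensing genes, Mcm5, which encodes a subunit of the replicative helicase, was lowest on the arrays labelled wild type with acLDL. Mcm5 had intensities of 332.3 and 392.4 in KI acLDL, 363.2 and 312.4 in KI untreated, 243.1 and 244.8 in wild type acLDL and 305.8 and 330.5 in wild type untreated. Both wild type acLDL arrays lay below the other 6. Its log2 level differed by 0.49 between KI and wild type with acLDL (SE 0.12, limma adjusted p = 0.105), by -0.33 between acLDL and untreated in wild type (SE 0.12, adjusted p = 0.351) and by 0.09 between acLDL and untreated in KI, and none passed the threshold.

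Mcm6, another subunit, had 120.3 and 111.5 in KI acLDL, 87.2 and 88.7 in KI untreated, 87.5 and 65.4 in wild type acLDL and 96.2 and 112.3 in wild type untreated. The KI acLDL arrays lay above the KI untreated arrays, and the wild type acLDL arrays below the wild type untreated arrays. The difference between the 2 acLDL effects was 0.58 (95% interval 0.18 to 0.98) at an unadjusted p of 0.0109 and a limma adjusted p of 0.545, the lowest adjusted p of the members in that test. This rests on 1 of the 3 probes of Mcm6. A further probe was above noise on KI acLDL replicate 1 alone, at 136.1, and the last on none.

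The remaining licensing genes varied less. Mcm7, also a helicase subunit, had 181.0 and 197.2 in KI acLDL, 207.4 and 233.4 in KI untreated, 159.5 and 183.9 in wild type acLDL and 207.6 and 243.8 in wild type untreated, so acLDL arrays lay below untreated ones in both genotypes. Its acLDL difference was -0.18 in KI and -0.32 in wild type (limma adjusted p = 0.364 in wild type). A second Mcm7 probe, above noise on 3 arrays, gave 0.23 in KI and -0.26 in wild type. Mcm4 stayed between 1109.3 and 1227.3 over all 8 arrays, Mcm2 between 211.6 and 270.9, Cdt1, a loader of the helicase, between 148.8 and 194.2, and Cdc6, the other loader, between 62.0 and 100.1. As for Mcm5, both wild type acLDL arrays of Cdt1, at 148.8 and 157.3, lay below all others. All 7 measured licensing genes were lower on average with acLDL in wild type cells, and 4 of them had groups that did not overlap, all lower, against 41.8% of items apart and 19.9% apart and lower. In KI cells 4 of 7 were higher and 3 lower with acLDL. Between KI and wild type with acLDL all 7 were higher on the probe used for each gene. Of these, 5 had groups apart, against 55.1% of items apart and 24.1% apart and higher. The second Mcm7 probe gave -0.22 there. Leaving out single arrays gave 5 to 7 of 7 lower with acLDL in wild type, and 1 lower in place of 0 between KI and wild type with acLDL when KI acLDL replicate 2 or wild type acLDL replicate 2 was left out. Of 28 further replication genes, listed apart from the members, 20 were lower with acLDL in wild type. Between KI and wild type with acLDL, 13 of the 28 were higher and 15 lower.

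Summed markers of neutrophils and myeloid progenitors were also lowest on the wild type acLDL arrays. Their summed intensity over 11 probed genes was 6065 and 7166 in KI acLDL, 4340 and 5076 in KI untreated, 3517 and 2515 in wild type acLDL and 5149 and 5797 in wild type untreated. Of the 11, 6 passed, and Ngp and the granule protein genes Mpo, Elane, Prtn3 and Ctsg were above noise on none. S100a8, a calcium-binding protein of neutrophils, gave much of the sum, with 2632.9 and 3116.6 in KI acLDL, 1633.7 and 1475.7 in KI untreated, 706.7 and 662.6 in wild type acLDL and 1508.8 and 1395.1 in wild type untreated. Without S100a8 the sum was 2706 on KI untreated replicate 1, between the wild type acLDL sums of 2810 and 1853. Ltf, a granule protein, had another order, with 691.7 and 401.2 in KI acLDL, 406.1 and 1313.5 in KI untreated, 946.4 and 401.7 in wild type acLDL and 1704.3 and 1442.5 in wild type untreated. Of 10 lymphocyte markers that passed, 8 were lower with acLDL in wild type, against 4878 of all 10187 items, with a median log2 difference of -0.41. Of these, 5 had an unadjusted limma p under 0.05, against 12.0% of all items, and none was called. With acLDL in KI, 8 of the 10 were also lower, against 5305 of all items, with a median of -0.17. Of 13 macrophage markers that passed, 11 were lower and 2 higher with acLDL in wild type, with a median of -0.31. Of the 13, 9 had groups apart (41.8% of items), 8 of them lower (19.9%). In KI 10 of the 13 were higher with acLDL, and 11 were higher in KI than wild type with acLDL. Endothelial markers went the other way in wild type, 8 of 10 being higher with acLDL. The part of these cells in the licensing values was not tested.

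The genes of nucleotide supply and of the sliding clamp differed little. Pcna, which encodes the clamp that holds DNA polymerase on its template, had 137.7 and 157.6 in KI acLDL, 118.6 and 118.2 in KI untreated, 121.3 and 105.0 in wild type acLDL and 119.8 and 115.3 in wild type untreated. The KI acLDL arrays were the highest of the 8, with a log2 difference of 0.29 from wild type acLDL (SE 0.11, limma adjusted p = 0.188). Tyms, thymidylate synthase, lay between 71.3 and 125.1, and its highest array was KI acLDL replicate 2. Its lowest were both wild type acLDL arrays, at 71.3 and 72.0. Rrm1, the large subunit of ribonucleotide reductase, lay between 164.4 and 238.9, and its highest array was KI untreated replicate 2. Tk1, thymidine kinase, was above noise on KI acLDL replicate 2 (46.0) and wild type untreated replicate 2 (59.5) alone, so it has no fold change.

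Of the G1 genes, Ccnd2 stood out on arrays labelled wild type with acLDL. Ccnd2, which encodes cyclin D2, had 1508.2 and 1470.2 in KI acLDL, 1393.3 and 1489.6 in KI untreated, 2265.4 and 2021.3 in wild type acLDL and 1617.8 and 1574.7 in wild type untreated. Both wild type acLDL arrays lay above the other 6, and KI lay below wild type under both treatments. The log2 difference between acLDL and untreated was 0.05 in KI and 0.41 in wild type (SE 0.11, limma adjusted p = 0.231 in wild type), and the difference between these effects was -0.37 (95% interval -0.71 to -0.02, adjusted p = 0.578). KI against wild type gave -0.51 with acLDL (adjusted p = 0.0837) and -0.33 over both treatments (SE 0.07, adjusted p = 0.0527).

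Cdk2, the kinase that cyclin E binds, had 811.3 and 829.6 in KI acLDL, 963.2 and 885.6 in KI untreated, 1040.3 and 1078.9 in wild type acLDL and 1154.3 and 1137.0 in wild type untreated. All 4 KI arrays lay below all 4 wild type arrays, with means of 9.84 ± 0.11 in KI and 10.16 ± 0.07 in wild type (log2, SD, n = 4 each). The difference was -0.33 (SE 0.07, limma adjusted p = 0.0511). The other probes of the gene did not share this value: the 2 further Cdk2 probes that passed gave -0.13 and 0.15.

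Cdk4, the partner of D-type cyclins, had 1125.1 and 1104.7 in KI acLDL, 1041.2 and 1017.0 in KI untreated, 1008.6 and 1012.6 in wild type acLDL and 1306.1 and 1170.9 in wild type untreated. The acLDL arrays lay above untreated ones in KI and below them in wild type, with a difference between the 2 effects of 0.39 (SE 0.14, limma adjusted p = 0.555). The 2 other Cdk4 probes that passed gave 0.20 and -0.02 for it. Ccnd3, which encodes cyclin D3, was between 183.3 and 289.3, with a KI minus wild type difference of 0.28 over both treatments (SE 0.10, adjusted p = 0.136). E2f1, an activating E2F factor, was between 230.0 and 313.0, and its KI and wild type groups overlapped with acLDL. Untreated, the KI arrays (280.7 and 230.0) lay below the wild type arrays (291.5 and 289.6). Ccnd1, which encodes cyclin D1, was between 5555.4 and 7206.0 on its brightest probe, and of its 4 passing probes 2 were higher and 2 lower in KI over both treatments.

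Mdm2, the ubiquitin ligase that restrains p53, fell in KI. Its intensities were 1669.7 and 1564.0 in KI acLDL, 1728.9 and 1781.9 in KI untreated, 2467.2 and 2145.2 in wild type acLDL and 2267.8 and 2363.7 in wild type untreated. All 4 KI arrays lay below all 4 wild type arrays, with log2 means of 10.76 ± 0.08 in KI and 11.20 ± 0.08 in wild type (SD, n = 4 each). The difference was -0.44 (SE 0.08, 95% interval -0.63 to -0.26), or 1.36-fold lower in KI, at a limma adjusted p of 0.0443. It was -0.50 with acLDL (adjusted p = 0.0883) and -0.39 untreated (adjusted p = 0.212), and acLDL against untreated gave -0.12 in KI and -0.01 in wild type.

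The call of Mdm2 was close to the threshold. It ended without the noise filter (limma adjusted p = 0.117) or without background correction (0.0813). Leaving out any single array ended it too, except wild type acLDL replicate 2, with log2 differences of -0.40 to -0.49. Over all items, leaving out any single array other than that one gave between 0 and 10 calls, in place of 345. The second Mdm2 probe was under the noise limit on all 8 arrays.

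Cdkn1a had the highest acLDL differences of the list. Its intensities were 1247.9 and 1902.9 in KI acLDL, 786.5 and 1207.9 in KI untreated, 2053.2 and 1534.7 in wild type acLDL and 697.5 and 982.9 in wild type untreated. In each genotype both acLDL arrays lay above both untreated arrays. The log2 difference was 0.64 in KI (1.56-fold, limma adjusted p = 0.767) and 1.06 in wild type (2.09-fold, SE 0.28, 95% interval 0.41 to 1.71, unadjusted p = 0.00547, adjusted p = 0.231). A second probe gave 0.55 in KI and 1.05 in wild type. The difference between the genotypes' effects was -0.42 (95% interval -1.34 to 0.49, adjusted p = 0.784), so neither effect passed the threshold and they were not shown to differ.

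**Figure D3:**
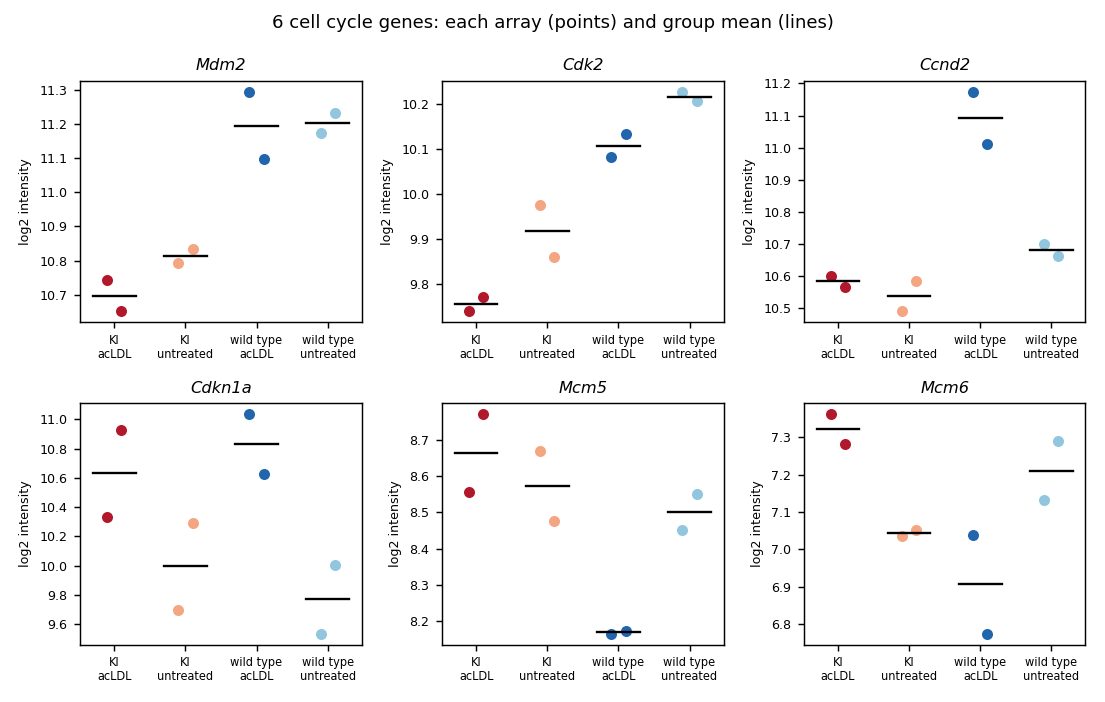
Log2 intensity (y axes, each with its own range) of 6 genes on each array (points) by group (x axes), with a line at the group mean. Mdm2 and Cdk2 lie lower on all 4 KI arrays than on all 4 wild type arrays, Ccnd2 is highest and Mcm5 lowest in wild type acLDL, and Cdkn1a is higher with acLDL in both genotypes.

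For Birc5, Cdc20 and Top2a, mitosis genes near the noise limit, KI acLDL replicate 2 held the highest value. Birc5, which encodes survivin, a subunit of the chromosomal passenger complex, had 59.3 and 117.9 in KI acLDL, 49.1 and 46.6 in KI untreated, 33.9 and 43.9 in wild type acLDL and 37.9 and 62.8 in wild type untreated. Cdc20 had 35.6 and 98.0 in KI acLDL, 77.4 and 55.8 in KI untreated, 17.2 and 59.0 in wild type acLDL and 43.1 and 84.8 in wild type untreated. Top2a had 21.2 and 83.6 in KI acLDL, 28.0 and 34.2 in KI untreated, 25.7 and 50.3 in wild type acLDL and 27.3 and 28.3 in wild type untreated. Cdc20 had values nearly as high on wild type untreated replicate 2 and KI untreated replicate 1, and KI acLDL replicate 1 was among the lowest for Cdc20 and Top2a.

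Plk1, a kinase that starts mitosis, had 30.9 and 49.2 in KI acLDL, 12.6 and 46.6 in KI untreated, 43.7 and 30.3 in wild type acLDL and 45.2 and 1.3 in wild type untreated. Stmn1, which encodes the microtubule regulator stathmin, had 238.1 and 251.2 in KI acLDL, 180.6 and 204.7 in KI untreated, 171.0 and 208.9 in wild type acLDL and 272.9 and 179.4 in wild type untreated. KI acLDL replicate 2 was the highest array for 4 of the 5 mitosis genes, all but Stmn1, against 17.8% of all items. Top2a exceeded the noise limit only on that array and wild type acLDL replicate 2, so the filter partly fixed its place. That array was also highest for 6 of the 14 probes of mitosis genes that did not pass, and for 13 of 18 other mitosis genes (72.2%). Some of those probes belong to genes that passed, and none of the 14 exceeded the noise limit on more than 1 array. The 18 genes, of 52 listed, passed the same filter, and a high value on that array could count towards passing. The lists were also chosen with earlier results known, so these counts only describe the arrays. None of the 5 passed a test: for Birc5 the log2 difference between KI and wild type with acLDL was 0.64 (95% interval 0.14 to 1.14, limma adjusted p = 0.156).

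Without KI acLDL replicate 2, the median over the 5 mitosis genes was 0.06 in place of 0.28 for acLDL in KI, 0.00287 in place of 0.31 for KI against wild type with acLDL, and -0.05 in place of 0.37 for the difference of acLDL effects. On that array the summed macrophage markers reached 52035, against 36069 to 47837 on the other 7, the neutrophil and progenitor markers 7166, against 2515 to 6065, and the fibroblast and smooth muscle markers 38455, against 18289 to 29887. The first and the last of these sums rest on 1 gene each: without Lyz2 the macrophage sum was 19372 on that array, against 19548 to 23377 on the others, and without Mgp, a matrix protein gene, the fibroblast sum was 17507, against 10993 to 18258. Of the markers that passed, 3 of 13 for macrophages, 4 of 10 for fibroblasts and 3 of 6 for neutrophils were highest on that array, against 17.8% of all items. So were 2 of 4 for the red cell lineage, 3 of 10 for endothelium, 1 of 10 for lymphocytes, 1 of 11 for lung epithelium and 0 of 4 for adipocytes. Slc4a1, a red cell marker, had 2863.9 and 2907.0 in KI acLDL, against 176.8 to 747.6 on the other arrays. Alas2, another, had 10569.3 and 11080.8 in KI acLDL, against 2804.5 to 7272.0 on the others. Tfrc had 1142.3 and 1272.2 in KI acLDL, against 1215.9 to 1497.3. Hba-a1 had the same value of 50673.3 on every array but KI acLDL replicate 2 (46069.8), so its order says little. Their part in the mitosis values was not tested. Wild type acLDL replicate 1 was the lowest array for 10 of the 24 members, 7 of them S phase and G1 genes and 3 mitosis genes, against 14.7% of all items.

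**Figure D4:**
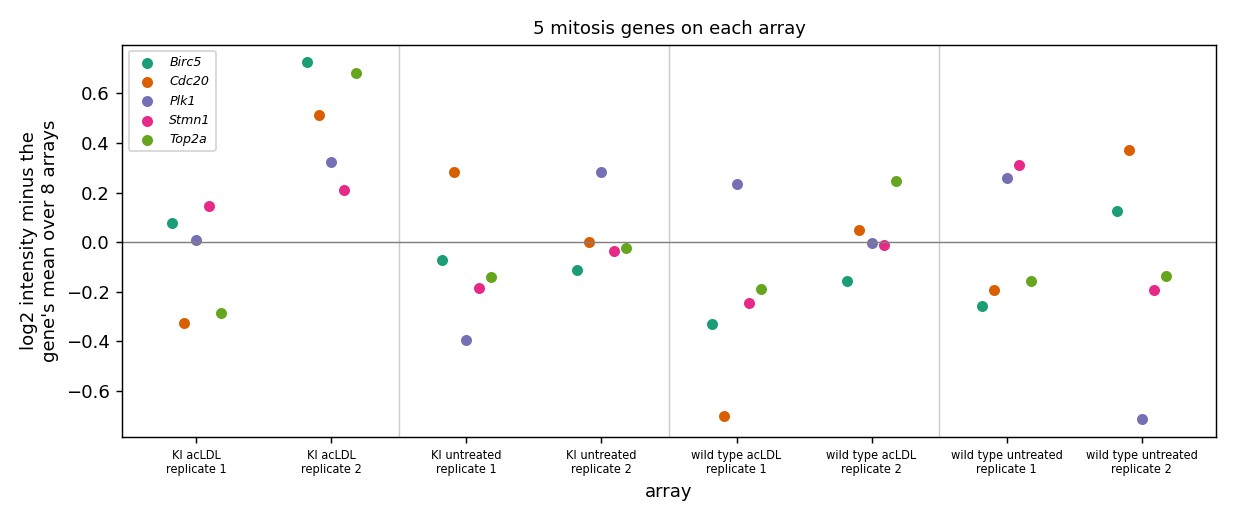
Log2 intensity of the 5 mitosis genes that passed, minus each gene's mean over the 8 arrays (y axis), on each array (x axis). On KI acLDL replicate 2 all 5 lie above 0, and on KI acLDL replicate 1 Cdc20 and Top2a lie below it.

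Further genes of the same pathways, listed apart from the members, gave 3 calls, all in KI against wild type over both treatments, where 3.39% of all items were called. None of the 28 measured replication genes was called in any comparison. Of the 18 mitosis genes 1 fell: Bub3, a spindle checkpoint protein, had 217.8, 216.4, 251.7 and 255.9 on the KI arrays and 322.0, 341.9, 314.3 and 280.3 on the wild type arrays, a difference of -0.36 (SE 0.07, limma adjusted p = 0.0462). Of the 20 genes for CDK inhibitors, pocket proteins and other E2F factors 1 rose: E2f2, an activating E2F factor, had 766.1, 949.6, 563.1 and 595.8 on the KI arrays and 445.6, 484.9, 448.9 and 549.3 on the wild type arrays, a difference of 0.51 (SE 0.10, adjusted p = 0.0457). Of the 16 further p53 targets 1 rose: Phlda3, a repressor of AKT signalling, had 485.2, 578.9, 446.2 and 438.2 on the KI arrays and 330.6, 329.7, 406.8 and 378.4 on the wild type arrays, a difference of 0.39 (SE 0.08, adjusted p = 0.0487). The KI and wild type arrays did not overlap for any of the 3. As with Mdm2, these calls were near the threshold: under 18 alternatives Bub3 passed in 6, E2f2 in 9 and Phlda3 in 6, and their adjusted p reached 0.146, 0.145 and 0.152. Of the p53 targets called, Phlda3 was thus higher and Mdm2 lower in KI.

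Other genes of these lists named by their p-values did not pass. Nusap1, a spindle protein, had log2 levels of 7.82 and 8.44 in KI acLDL, 7.28 and 7.12 in KI untreated, 7.22 and 7.12 in wild type acLDL and 7.28 and 7.70 in wild type untreated, with a difference between the acLDL effects of 1.24 (SE 0.31, limma adjusted p = 0.413). Tfdp2, a partner of E2F factors, had 8.46 and 8.27 in KI acLDL, 7.93 and 7.42 in KI untreated, 7.29 and 7.55 in wild type acLDL and 7.64 and 7.51 in wild type untreated, with a KI minus wild type difference with acLDL of 0.95 (adjusted p = 0.0803). Ccng2, which encodes cyclin G2, a cyclin linked to cell cycle arrest, had 6.89 and 7.02 in KI acLDL, 6.69 and 6.53 in KI untreated, 6.64 and 6.72 in wild type acLDL and 7.14 and 7.09 in wild type untreated. The acLDL arrays of Ccng2 lay above the untreated ones in KI and below them in wild type, with a difference between the effects of 0.78 (SE 0.16, adjusted p = 0.310). Prim2, a primase subunit, lay under the noise limit on both wild type acLDL arrays and on an array of each other group. It is given without a fold change.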

How the data were processed

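The values are the deposited table of the 8 arrays: intensity on a linear scale, read out with BeadStudio per the submitters' processing notes (version and settings not given in the sources used here). Since 29.2% of them are negative and the columns, once sorted, are within 1.4 of each other, background subtraction and quantile normalization were inferred. A further table of 16 value columns matched no sample label and was not used. RNA was extracted with TRIZOL per the labels' protocols.

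From the deposited intensities, limma 3.58.1 (R 4.3.3) computed normexp background correction with an offset of 16 and log2 values. Probes above an intensity of 36.7 on at least 2 arrays were kept (11819 of 24613; 11026 to 11033 probes exceeded it per array), and the brightest probe stood for a gene, giving 10187 items. The labels name the mouseRef-8 v2 beadchip, but the annotation given is of another mouse platform; names were joined by probe ID and rest on an ID meaning the same probe on both, where 20984 had 1 gene symbol and 3629 had none or several. All 8 arrays entered 1 fit with 4 group means and 4 residual degrees of freedom, so the spread is shared over the groups, and p-values were two-sided and Benjamini-Hochberg adjusted over all items within each of 6 comparisons. With 2 arrays a group, the number of arrays limits the precision. Figures were drawn with matplotlib 3.10.9.

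Values on every array are given for members with the smallest p in any comparison and for at least 1 gene of each role; from each further list, up to 4 genes past the threshold or else up to 2 with the smallest p. Members and lists were chosen with earlier results of these data known. The alternatives tried changed the offset or background correction, the scaling (median centring, cyclic loess), the noise filter, the probe kept for a gene, the variance model, the arrays in the fit and the use of replicate numbers as a block. The fit was tested on simulated data. Replicates of a group correlated at 0.982 to 0.986.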

Additional observations from a re-analysis of the deposited data

How the results depend on the processing

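The sign of some medians turned: that of the mitosis genes for KI against wild type untreated (0.05) in 4 of 19 alternatives, for the difference of acLDL effects in 2 of 18 and for acLDL in wild type in 1 of 19, and that of the S phase and G1 genes for KI against wild type untreated in 2 of 19. The count of members called for KI against wild type over both treatments, 1 as reported, was 3 with an offset of 50, with a filter on all 8 arrays or with a variance trend, as Cdk2 and Ccnd2 joined Mdm2, 2 with every probe on its own, and 0 with no background correction or no filter. It was 0 to 2 when single arrays were left out. The count over all items was 345 in that comparison and 0 to 578 when single arrays were left out, and 2 to 705 under the other settings, with 2 of 10187 called without background correction. The median of the mitosis genes was 0.57 for the difference of acLDL effects and 0.51 for KI against wild type over both treatments with no background correction, and -0.17 for KI against wild type untreated where only genes above noise on all 8 arrays were kept, which leaves Stmn1 alone. Leaving out single arrays gave mitosis medians of 0.065 to 0.38 for acLDL in KI, -0.26 to 0.062 for acLDL in wild type, -0.052 to 0.60 for the difference of acLDL effects, 0.00287 to 0.65 for KI against wild type with acLDL and 0.031 to 0.36 over both treatments. It gave S phase and G1 medians of 0.055 to 0.18 for the difference of acLDL effects, 0.086 to 0.19 for KI against wild type with acLDL, -0.068 to 0.031 untreated and 0.011 to 0.12 over both treatments. Deviations of same-numbered samples correlated at 0.19, 0.29 and 0.20 among KI acLDL, KI untreated and wild type acLDL, and at -0.06, -0.31 and -0.16 in the 3 pairs with wild type untreated. As not every pair exceeded 0.1 and the labels tie the numbers to no shared animal or day, the samples were not treated as paired. This rule was not applied to each genotype alone. Fcer1g, a macrophage marker, had 874.6 and 695.2 on the KI arrays numbered 1, and -0.6 and -12.4 on those numbered 2. The cause of this was not tested. With the replicate number as a block, 1 member was called over both treatments, 413 items passed there, Mdm2 and E2f2 kept their calls (adjusted p 0.0432 and 0.0415), and Bub3 and Phlda3 lost theirs (0.0511 and 0.0533). The cause of the changes with offset, background correction and variance model was not tested. A fit of only the groups compared was not run for the difference of acLDL effects or the mean of both treatments, which use all 8 arrays. Of the 24 genes, Tk1, Cdc20, Plk1 and Top2a, all near the noise limit of 36.7, had the 4 widest intervals.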
